A study of Homo sapiens with 2 samples.

Results

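Genes of the hypoxia response and of glycolysis were compared between Ca9-22 cells carrying a PTHLH vector and Ca9-22 cells carrying an empty vector. The set was a list of 45 gene symbols, and 43 of them had at least 1 of the array's probe sets, the groups of short oligonucleotides that report on a transcript, assigned to them alone, out of 19775 genes measured in all. CA9 and SLC16A3 had none and are not analysed here. Each gene was read from its brightest probe set, and the 99 probe sets of the 43 genes were kept as a check. Ca9-22 is a human line from a gingival squamous cell carcinoma, and both groups were stably transduced and selected with blasticidin, so that they shared the infection and the drug and differed in the insert, a PTHLH cDNA or none. The methods of the study describe an enriched population of infected cells, and the labels mention an ordinary incubator and no low-oxygen treatment. Total RNA of 1 culture of each kind was hybridised to 1 Affymetrix U133 array, so no difference below has a replicate check, and neither a p-value nor a spread between cultures is available.

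Cells sense oxygen through the prolyl hydroxylases of the EGLN family, which mark the alpha subunits of the hypoxia-inducible factors (HIF) for destruction by the VHL ubiquitin ligase when oxygen is present. Stabilised HIF binds short DNA elements and raises transcription of genes for blood vessel growth, pH control, mitophagy, collagen modification and glycolysis. Squamous carcinomas of the head and neck are known for such a response in their poorly perfused regions, and most tumor cells run glycolysis at a high rate even in air.

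The label of the cells was examined first, because a description field of both samples names another line, CX-1, which is a colon carcinoma line, and another gene. Of 10 markers of squamous epithelium, 7 were measured and all 7 lay above the median of both arrays, with intensities from 390.1 to 12880 with the empty vector and from 447 to 13240 with PTHLH. Of 10 colon markers, 9 were measured, and their intensities reached at most 74.8 and 89.3. Of these 9, 6 lay above both medians, which were 19.5 and 19.4 (CDX1, CDX2, VIL1, GPA33, GUCY2C and MUC2), and KRT20, LGALS4 and CDH17 were below them. GPA33 went from 49.1 with the empty vector to 31.0 with PTHLH (log2 difference -0.66), the only marker of any cell type here past 1.5-fold. Of all 19775 measured genes 12982 lay above both medians by their brightest probe sets, a share close to that of the colon markers. Of 3 measured leukocyte markers none was above both medians, and of 3 endothelial markers only PECAM1 was. Of 4 fibroblast markers COL1A1 and PDGFRB were above both medians, while COL1A2 and COL3A1 were below them, and COL1A1 went from 2437 to 1652. Whether these markers had a part in the differences below was not tested. PTHLH itself is not analysed here, as none of its probe sets is named in the annotation used.

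In the PTHLH cells 7 of the 43 genes (16.3%) were at least 1.5-fold lower, the study's own threshold, against 3.52% of all measured genes, and none was at least 1.5-fold higher, against 1.97% of all measured genes. Every one of the 7 lay above the median of both arrays, and among all genes above both medians 4.36% were at least 1.5-fold lower and 2.50% higher. At a 2-fold threshold EGLN3 and ENO2 remained, 2 of 43, against 0.733% of all genes. These are the dimmest of the 7 on the PTHLH array (30.4 and 36.3, beside a median of 19.4). EGLN3 was not 2-fold lower by its second probe set (-0.68). The 7 were ENO2, ALDOC and PFKP of glycolysis, the oxygen sensor EGLN3, and the induced genes VEGFA, BHLHE40 and P4HA1. The median log2 difference of the 43 genes was -0.02, against 0 for all measured genes, so the list as a whole lay near the middle of the arrays and its lower members formed a tail. In RNA from whole cultures, fewer cells expressing a gene and less RNA per cell cannot be told apart.

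**Figure D1:**
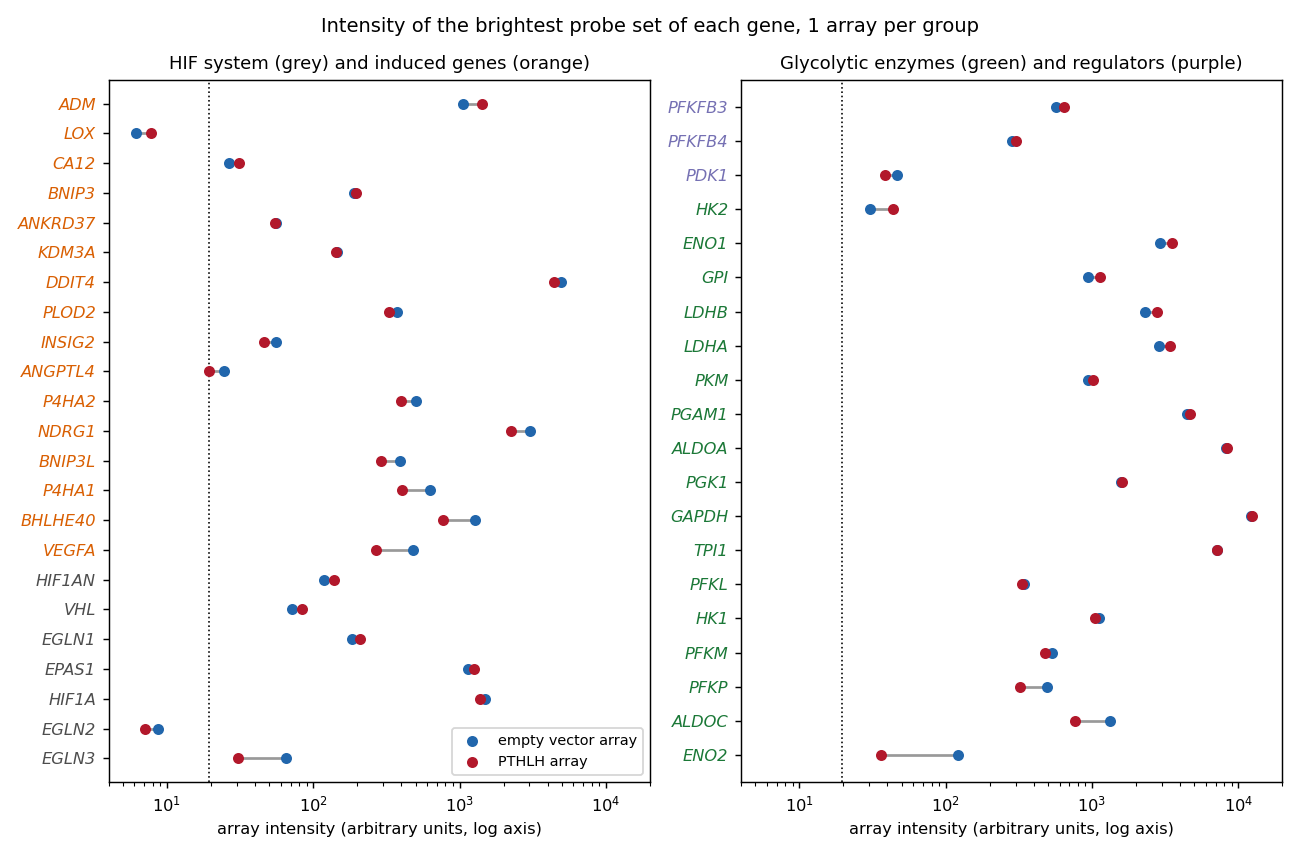
Intensities of the 43 measured genes, in arbitrary units (log axis), with the empty vector array in blue and the PTHLH array in red, 1 array each, joined by a line. Genes are ordered by log2 difference within each list, and the dotted line is the median of the empty vector array. The longest line belongs to ENO2, from 122 to 36.3, while GAPDH and TPI1 nearly coincide on both arrays.

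The regions upstream of some of these genes are shown because they are where the response is read out in DNA. HIF binds a core of ACGTG or GCGTG, and both cores were searched on both strands in the 250 bases before each annotated transcription start, taken from RefSeq promoter windows of assembly GRCh38.p14. Windows were found for 41 of the 45 listed genes. The genes shown are the 5 lower members that have a single window, together with ENO1, an isoenzyme of ENO2 that was not lower. Capitals mark a core or its reverse complement, and in the palindrome CACGTG the matches of both strands overlap.
ENO2, chr12:6914330-6914579, plus strand: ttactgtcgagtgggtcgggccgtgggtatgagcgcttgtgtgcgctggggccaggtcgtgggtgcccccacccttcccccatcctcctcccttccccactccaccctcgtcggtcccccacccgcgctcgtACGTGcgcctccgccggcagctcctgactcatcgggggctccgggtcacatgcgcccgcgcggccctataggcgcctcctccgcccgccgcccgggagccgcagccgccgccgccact
ENO1, chr1:8878687-8878936, minus strand: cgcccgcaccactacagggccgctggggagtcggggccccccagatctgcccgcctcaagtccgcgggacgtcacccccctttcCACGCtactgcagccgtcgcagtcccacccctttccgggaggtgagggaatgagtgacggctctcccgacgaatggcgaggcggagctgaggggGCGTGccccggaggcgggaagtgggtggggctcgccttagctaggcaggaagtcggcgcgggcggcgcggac
ALDOC, chr17:28576896-28577145, minus strand: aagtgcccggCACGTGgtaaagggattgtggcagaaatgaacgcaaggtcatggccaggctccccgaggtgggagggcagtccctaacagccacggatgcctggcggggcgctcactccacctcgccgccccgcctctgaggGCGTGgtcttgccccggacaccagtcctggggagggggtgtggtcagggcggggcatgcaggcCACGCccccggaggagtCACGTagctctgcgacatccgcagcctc
EGLN3, chr14:33951075-33951324, minus strand: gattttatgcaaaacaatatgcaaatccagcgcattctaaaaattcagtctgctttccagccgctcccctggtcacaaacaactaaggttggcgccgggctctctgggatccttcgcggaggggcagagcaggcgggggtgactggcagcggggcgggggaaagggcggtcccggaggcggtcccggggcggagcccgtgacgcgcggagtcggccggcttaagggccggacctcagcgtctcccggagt
BHLHE40, chr3:4979187-4979436, plus strand: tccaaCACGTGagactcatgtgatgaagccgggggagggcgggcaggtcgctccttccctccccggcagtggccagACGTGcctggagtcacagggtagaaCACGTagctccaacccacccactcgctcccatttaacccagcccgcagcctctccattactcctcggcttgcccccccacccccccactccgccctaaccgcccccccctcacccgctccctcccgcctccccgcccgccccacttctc
P4HA1, chr10:73096867-73097116, minus strand: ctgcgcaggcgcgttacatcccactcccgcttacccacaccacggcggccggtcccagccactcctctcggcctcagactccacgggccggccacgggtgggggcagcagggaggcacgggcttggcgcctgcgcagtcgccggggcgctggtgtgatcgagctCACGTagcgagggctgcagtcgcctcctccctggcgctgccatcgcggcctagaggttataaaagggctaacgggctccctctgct
At least 1 core was present in 17 of 18 windows of the induced genes outside glycolysis (94.4%) and in 19 of 37 windows of the glycolytic enzymes (51.4%). Of all 35116 windows 43.2% held a core. These are shares of windows and not of genes, as the 18 windows belong to 14 genes and the 37 to 17 enzymes. The enzymes HK1 and PFKM have several windows each, most of them without a core, so the share of the enzymes leans on them and is not a share of enzymes with a core. Among the induced genes LOX, INSIG2 and KDM3A have more than 1 window each, all with a core. CA9, which the arrays did not measure here, is counted among the induced genes. The lower members had a core in 6 of 9 windows (66.7%), and all listed genes in 47 of 73 (64.4%). VEGFA, a lower member, had no window and is not in these counts. ENO2 had 1 core, 118 to 114 bases before the start, and ENO1 had 2. ALDOC had 5 matches and BHLHE40 had 4, counting both strands. EGLN3 had none in this window, which says only that these letters are not there. Several windows of one gene overlap, and a match is a description and not a demonstration of binding.

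The HIF subunits themselves differed little. HIF1A, the oxygen-labile alpha subunit found in most cells, had an intensity of 1493 with the empty vector and 1374 with PTHLH. EPAS1, the second alpha subunit, had 1133 and 1245. Their log2 differences of -0.12 and 0.14 were smaller than the SD of one log2 difference, 0.20, estimated from pairs of probe sets of 5594 genes with both probe sets above the medians, the only internal measure of error. That SD covers differences between probes and not between cultures. Of the regulators that lower HIF activity, the asparaginyl hydroxylase HIF1AN went from 118 to 138 and VHL from 71.4 to 83.4, with log2 differences of 0.22 each. The other 2 probe sets of HIF1AN had -0.07 and 0.38, so its own probe sets disagreed about the direction.

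Among the prolyl hydroxylases EGLN3 stood apart. EGLN3, a hydroxylase whose own gene is induced by HIF, had an intensity of 64.7 with the empty vector and 30.4 with PTHLH, a 2.13-fold lower value. Its second probe set, also above both medians, had a log2 difference of -0.68 beside -1.09 for the brightest, so both were at least 1.5-fold lower. EGLN1, the main oxygen sensor, went from 185 to 210 (log2 difference 0.18), and its other 3 probe sets lay between -0.09 and 0. The gap between EGLN1 and EGLN3 was 1.27 on the log2 scale. EGLN2 was read from a probe set below both medians (8.72 and 7.11). Probe sets shared with the readthrough gene RAB4B-EGLN2 were brighter and had log2 differences of 0.26 and 0.04, so no direction can be given for EGLN2.

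Of the 16 measured hypoxia-induced genes outside glycolysis, 3 (18.8%) passed 1.5-fold in the lower direction and none in the higher, against 3.52% and 1.97% of all measured genes. Of the 16, 12 (75%) lay below 0 on the log2 scale, against 47.0% of all measured genes, with a median of -0.23. VEGFA, the main angiogenic growth factor, had an intensity of 478 and 270 (1.77-fold lower). Its other 3 probe sets had log2 differences between -0.47 and -0.20, all below 0 and all within 1.5-fold. BHLHE40, a basic helix-loop-helix repressor of the clock and hypoxia responses, had 1272 and 774 (1.64-fold lower), and its second probe set had a log2 difference of -0.82 beside -0.72, so this gene was lower by both. P4HA1, a catalytic subunit of the collagen prolyl hydroxylase, had 623 and 405.0 (1.54-fold lower). Its other probe set lay below both medians and had -0.14. All 3 were thus lower by their brightest probe sets, and of the 3 only BHLHE40 was also 1.5-fold lower by a second one.

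The remaining 13 induced genes lay within 1.5-fold, from -0.43 to 0.42 on the log2 scale. P4HA2, the paralog of P4HA1, went from 507 to 396 (log2 difference -0.36), and the lysyl hydroxylase PLOD2 from 375 to 329.7 (-0.18). The second probe set of PLOD2, also above both medians, had 0.044, so its probe sets disagreed about the direction. NDRG1, a stress-responsive differentiation gene, went from 3005 to 2253 (-0.42), and DDIT4, an inhibitor of mTOR signalling, from 4955 to 4432 (-0.16). Both had a single probe set. The mitophagy receptor BNIP3L went from 392 to 291 (-0.43, and -0.13 by its second probe set) and its relative BNIP3 from 190 to 194 (0.03, and -0.096 by its second). The receptors were thus further apart by their brightest probe sets than by their second ones. The histone demethylase KDM3A (log2 difference -0.02) and ANKRD37 (-0.02) had nearly the same values on both arrays, and INSIG2, a regulator of sterol synthesis, had -0.27.

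ADM had the highest log2 difference of the 16, and CA12, ANGPTL4 and LOX were read near or below the array medians. ADM, the precursor of the vasodilator peptide adrenomedullin, had 1057 with the empty vector and 1412 with PTHLH, a log2 difference of 0.42 from a single probe set. CA12, a carbonic anhydrase of the cell surface, went from 26.5 to 30.9, and its 6 other probe sets ranged from -0.25 to 0.37 on the log2 scale, so they gave no common direction. ANGPTL4, a secreted inhibitor of lipoprotein lipase, went from 24.5 to 19.5, close to the medians, with -0.33 and -0.38 by its probe sets. LOX, the collagen crosslinking enzyme, was below both medians with 6.11 and 7.79, and its other probe sets had the opposite sign.

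**Figure D2:**
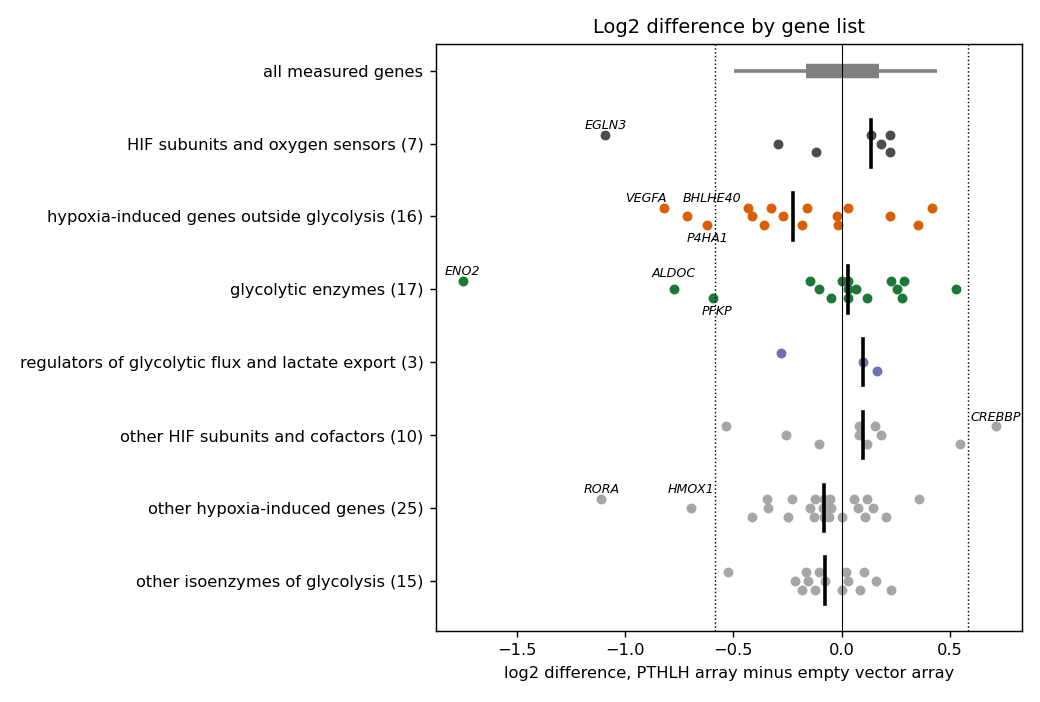
Log2 difference between the arrays (PTHLH minus empty vector) of each measured gene in 7 gene lists, with the number measured in brackets, the list median as a black bar and dotted lines at 1.5-fold. For the 19775 genes together a thin line runs from percentile 5 to 95 and the thick one from percentile 25 to 75. The orange points of the induced genes outside glycolysis lie mostly left of 0 (median -0.23), and the green points of the glycolytic enzymes lie around 0 (median 0.03) except for ENO2, ALDOC and PFKP on the left.

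All 17 glycolytic enzymes were measured above both medians. Of these, 3 (17.6%) passed 1.5-fold in the lower direction and none in the higher, against 3.52% and 1.97% of all measured genes. A log2 difference above 0 was found in 11 (64.7%), against 48.5% of all measured genes, and the median was 0.03. The 14 others ranged from -0.14 to 0.53. The 3 lower genes are each one isoenzyme of a step that the cells can also carry out with another. ENO2, the enolase first known from neurons, had 122 with the empty vector and 36.3 with PTHLH, a 3.36-fold lower value, the 13th lowest log2 difference (-1.75) among the 19775 genes. ENO1, the enolase of most tissues, had 2893 and 3533, and its 4 probe sets had log2 differences from 0.10 to 0.29. The gap between the enolases was 2.04 on the log2 scale. ENO2 has 1 probe set, so no second one bears on its value.

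ALDOC, the aldolase typical of brain, had 1317 and 769 (1.71-fold lower), also from a single probe set. ALDOA, the aldolase of muscle and most other cells, had 8172 and 8336, and its 3 probe sets had log2 differences from -0.21 to 0.03. Among the phosphofructokinases PFKP, the platelet isoform, had 489 and 324 (1.51-fold lower), just past the threshold, and its other probe set was below both medians with a log2 difference of 0.15. When the arrays were centred on their brighter probe sets, PFKP came within 1.5-fold. PFKL, the liver isoform, went from 345 to 334 and PFKM, the muscle isoform, from 529 to 478. Thus ENO2 and ALDOC were lower while ENO1 and ALDOA were not, and for PFKP the difference was near the threshold and borne out by 1 probe set of 2.

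The hexokinases and lactate dehydrogenases had no member past 1.5-fold. The hexokinase HK1 went from 1124 to 1044 (log2 difference -0.11). HK2, the inducible hexokinase of many tumors, went from 30.3 to 43.7 (0.53), the highest log2 difference of the 43 genes, and its other 2 probe sets, not above both medians, had 0.19 and 0.62. The last of these alone was past 1.5-fold. HK1 minus HK2 was -0.63 on the log2 scale, a wider gap than those of PFKL and PFKM to PFKP (0.54 and 0.45). The lactate dehydrogenase subunits LDHA and LDHB, which favour lactate and pyruvate respectively, went from 2885 to 3382 (0.23) and from 2308 to 2759 (0.26), so their gap was 0.03. GPI, the isomerase of glucose phosphate, went from 931 to 1128 (0.28).

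Apart from the enolases described above, the steps from triose phosphate to pyruvate had log2 differences between 0 and 0.11 by their brightest probe sets. GAPDH, the dehydrogenase that is often used as a reference gene, had 12201 and 12432, and its 6 probe sets, including the control probe sets for the start, middle and end of the transcript, had log2 differences from -0.03 to 0.09. Triose phosphate isomerase TPI1 had 7147 and 7159, with 3 probe sets from -0.09 to 0.02. The phosphoglycerate kinase PGK1 had 1579 and 1609, and its 6 probe sets lay between -0.01 and 0.22. PGAM1, the phosphoglycerate mutase, had 4480 and 4682 (0.06). PKM, the pyruvate kinase, had 935 and 1013 (0.11), but a second probe set had -0.24. GAPDH, PGAM1 and others of these genes have processed pseudogenes, and their probe sets may also bind such copies.

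**Figure D3:**
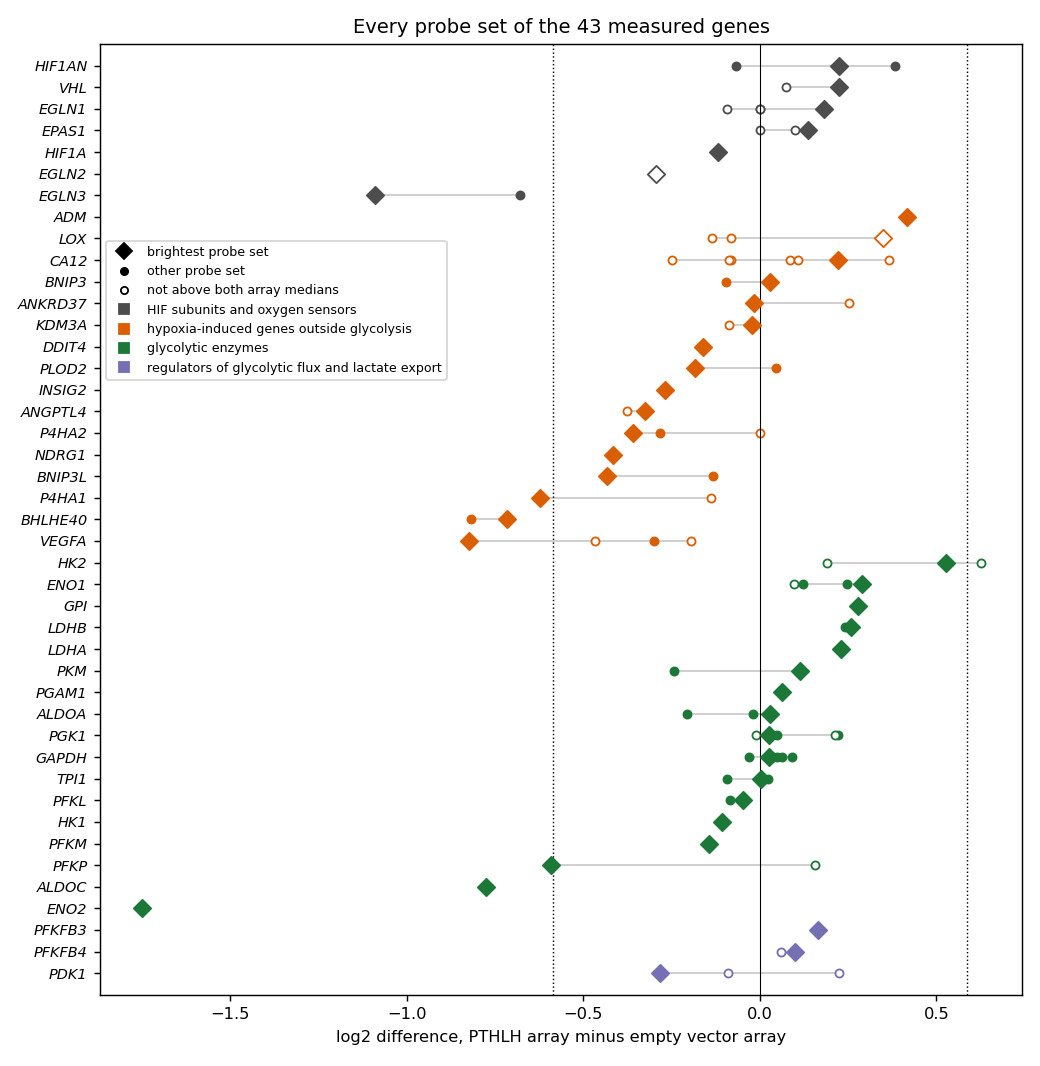
Log2 difference of every probe set of the 43 measured genes, with the brightest as a diamond, the others as circles, and open symbols for probe sets not above the median of both arrays. Dotted lines mark 1.5-fold. Both symbols of EGLN3 and of BHLHE40 lie left of the lower line, whereas VEGFA, P4HA1 and PFKP have other probe sets to the right of it, and ENO2 and ALDOC have a single symbol.

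The genes that set the flow of carbon into and out of glycolysis were within 1.5-fold. PFKFB3 and PFKFB4, bifunctional enzymes that make the activator of phosphofructokinase, went from 570 to 638 (log2 difference 0.16) and from 284 to 304 (0.10). PDK1, the kinase that shuts pyruvate dehydrogenase and so keeps pyruvate out of the mitochondria, went from 46.5 to 38.3 (-0.28), while its 2 other, dim probe sets had 0.23 and -0.09.

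The glycolytic enzymes and the induced genes outside glycolysis each had 3 lower genes, but the middle of the lists differed. The median was 0.03 for the 17 enzymes and -0.23 for the 16 others, a gap of 0.25 on the log2 scale. The gap was 0.04 over 8 genes of the second list when x and s probe sets, whose names carry these letters because they can bind several transcripts, were left out. The 2 medians are given as a description, since genes of one culture are not replicates. The plot of difference against intensity shows that the lower genes are not at one level of brightness.

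**Figure D4:**
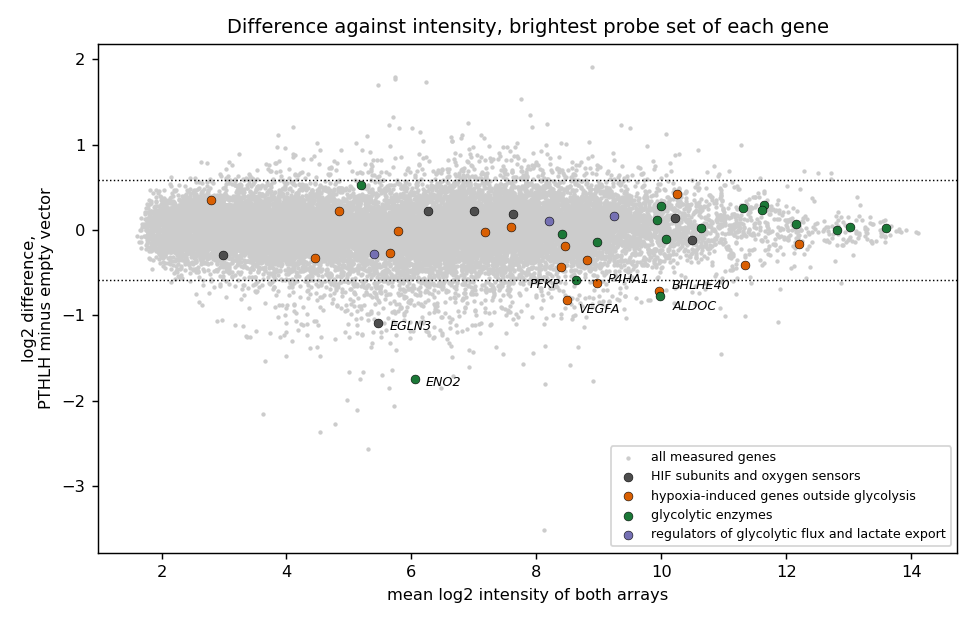
Log2 difference, PTHLH minus empty vector, against the mean log2 intensity of both arrays, for all 19775 genes (grey) and the 43 measured genes (coloured by list), with 1.5-fold as dotted lines. ENO2 lies at -1.75 and EGLN3 at -1.09 at lower intensity, and BHLHE40 and ALDOC lie near -0.72 and -0.78 at higher intensity.

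Where a gene had more than 1 probe set, the second brightest gave a measure of how far a value can be trusted. Of the 43 genes, 29 had at least 2, and the 2 brightest had the same direction in 19. Over all genes of the arrays with at least 2, this held for 6034 of 10523. The SD of one log2 difference was 0.20 from the pairs of the 29 genes, against 0.23 from those of the 10523. Of the 7 lower genes 5 had a second probe set, which was below 0 in 4 and at least 1.5-fold lower in 2, EGLN3 and BHLHE40. By the second brightest probe set 2 of 29 members were thus lower, against 2.40% of the 10523 genes measured that way, and none was higher, against 2.17%. By the median over all probe sets of a gene 4 of 43 were lower (ENO2, ALDOC, EGLN3 and BHLHE40), against 2.25% of all genes, and none was higher, against 1.25%.

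Other genes of the same pathways were taken from further lists, which like the members were chosen with earlier results of these data known. Of 10 further HIF subunits and cofactors, 1 was at least 1.5-fold higher and none lower, against 1.97% and 3.52% of all measured genes. Their median log2 difference was 0.10. CREBBP, an acetyltransferase that HIF recruits, was the higher one (392 to 641, 1.64-fold), and its other 3 probe sets had log2 differences between 0.08 and 0.47. Its relative EP300 had 0.54, and 0.25 by its second probe set. In the other direction, the HIF subunit ARNT2 went from 33.7 to 23.2 (-0.54, 1.45-fold lower) by a single probe set. CITED2 had -0.26, and its other probe sets ranged from -0.39 to -0.08. Of the 10, 7 (70%) lay above 0 and 3 (30%) below, against 48.5% and 47.0% of all measured genes. ARNT, the beta subunit that pairs with every HIF alpha subunit, had 0.08 by the brightest of its 7 probe sets, but the others ranged from -0.50, the second brightest, to 0.29, so no direction can be given. Of 25 further hypoxia-induced genes 2 (8%) were lower and none higher, against 3.52% and 1.97% of all measured genes, and 17 (68%) lay below 0, against 47.0%, with a median of -0.08. HMOX1, the heme oxygenase that several stresses induce, was one of them (147 to 90.8, 1.62-fold lower). The other, RORA, was below both medians and outside the rule for naming genes, and its 7 other probe sets had log2 differences between -0.30 and 0.16. SLC2A1, the glucose transporter of most tumor cells, had 0.20. Of 15 further isoenzymes of glycolysis, none was at least 1.5-fold lower or higher, against 3.52% and 1.97% of all measured genes. The muscle enolase ENO3 was among them (-0.22, and 0.08 by its second probe set). BPGM, the mutase that diverts carbon in red cells, had the lowest log2 difference of these (-0.53).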

How the data were processed

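Biotin-labelled RNA of 1 empty vector culture and 1 PTHLH culture of Ca9-22 was hybridised to Affymetrix U133 arrays, 1 per culture. The authors deposited 54675 intensities for each array, 1 per probe set, on a linear scale in arbitrary units. How they corrected the background, normalized the arrays and summarised the probes is not given in the sources used here. Groups were taken from the characteristics in the labels. Gene names came from the platform annotation and were brought up to date by gene identifier with RefSeq (GRCh38.p14), and only the 41097 with 1 symbol were used. The 1801 with several symbols and 11777 unnamed here were left out, except as an alternative.

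Differences are PTHLH minus empty vector on the log2 scale. A gene took its brightest probe set, by the mean of both log2 values. A difference of at least 1.5-fold was counted, and no test was run, as each group has 1 array, and precision is limited by that number. The members and lists were chosen with earlier results of these data known. All 43 measured members could be named. From the other lists, genes at least 1.5-fold changed and above the median on at least 1 array were named, up to 4 a list, and a few others were added as landmarks after their values were seen. Alternatives were quantile normalization, centring on brighter probe sets, other choices of probe set, filters on dim, control or x and s probe sets, a floor at percentile 40, a pseudocount of 16, use of probe sets with several symbols and a 2-fold threshold. A filter on both arrays was added after seeing the data. The counting was tested on simulated data. Python 3.11.15, pandas 2.3.3, numpy 2.4.6 and matplotlib 3.10.9 were used.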

Additional observations from a re-analysis of the deposited data

How the results depend on the processing

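No paired analysis was possible because each group has 1 array. All 7 lower members kept their call under quantile normalization, the filters on dim or control probe sets, the floor and the use of probe sets with several symbols. Apart from quantile normalization, these settings could not change the calls. The 7 were read from probe sets above both medians that are not controls, and none of the 7 has a probe set with several symbols. Before quantile normalization the arrays already had similar medians (19.5 with the empty vector and 19.4 with PTHLH). Centring on the brighter probe sets and the pseudocount each left 6, without PFKP. Of all genes 3.16% were lower with the centring and 1.95% with the pseudocount. With the pseudocount EGLN3 had a log2 difference of -0.80 and ENO2 of -1.40, beside -1.09 and -1.75 without it. The median over probe sets left 4 lower members (1 of them among the induced genes outside glycolysis), without P4HA1, PFKP and VEGFA. By the second brightest probe set 2 of 29 were lower, against 2.40% of all genes measured that way. Of the enzymes 0 of 10 were lower (median 0.10), and of the induced genes 1 of 12 (median -0.13). PFKP turned to 0.15 by that probe set. ENO2 and ALDOC have no second probe set, so they are missing there by construction. Taking for each gene the largest change among its probe sets, 1 member, the enzyme HK2, was higher, the median of the enzymes was -0.084 and the gap between the lists 0.14. Without x and s probe sets 25 members were left, of which 3 were lower and 0 higher, against 3.41% and 1.88% of 17100 genes. The lower ones were 3 of 10 enzymes (median -0.034) and 0 of 8 induced genes (median -0.078), with a gap of 0.044. EGLN3, BHLHE40 and VEGFA have only such probe sets. At 2-fold, 2 members were lower (EGLN3 and ENO2), of which 1 was an enzyme and 0 an induced gene, against 0.733% of all genes. Over all genes, the brightest probe set gave 390 higher and 696 lower, against 248 and 444 by the median, 689 and 984 by the largest change, 216 and 386 with the pseudocount, 36 and 145 at 2-fold, and 228 and 253 of 10523 by the second brightest. Differences of dim probe sets, such as those of LOX and EGLN2, have no firm direction, and with 1 array per group no alternative measures the spread between cultures.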

Other observations

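Downstream of glycolysis, genes of the tricarboxylic acid cycle were mixed. Of 15 measured, 2 were at least 1.5-fold lower in the PTHLH cells and 1 was higher, with a median log2 difference of -0.01. IDH2, the mitochondrial isocitrate dehydrogenase that uses NADP, had an intensity of 637 with the empty vector and 349.9 with PTHLH (1.82-fold lower), and its second probe set had a log2 difference of -0.74. The subunits of the isocitrate dehydrogenase that uses NAD differed from each other. IDH3A, its catalytic subunit, went from 185 to 121 (1.53-fold lower), with -0.27 and -0.25 by its other probe sets, whereas the regulatory subunit IDH3B went from 360.4 to 594.9 (1.65-fold higher), with 0.68 and 0.59, and IDH3G had 0.06.

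Around pyruvate dehydrogenase, 1 of 14 measured genes was lower and none higher. PDP1, the phosphatase that switches the complex on, went from 683 to 421 (1.62-fold lower), and its second probe set had a log2 difference of -0.65. DLAT, the acetyltransferase of the complex, had 0.45, with 0.39 and 0.41 by its other probe sets. None of 7 gluconeogenic genes and none of 6 genes of the pentose phosphate pathway was past 1.5-fold. The medians of these lists were 0 and -0.15, and PCK2, the mitochondrial enzyme that makes phosphoenolpyruvate, had -0.56 from a single probe set. These lists are described by the same counts as above, with 3.52% of all measured genes lower and 1.97% higher.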
